A study of Mus musculus with 12 samples.

Results

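In cells labelled as mouse aortic endothelial cells, 4420 regions of open chromatin were found in the group in which neither the mothers nor the offspring received the Western diet (WD), and in none of the 3 groups with any WD. They are 4420 of 48003 regions, or 9.21%, obtained by merging the peaks of 4 deposited ATAC-seq peak lists on chromosomes 1 to 19 and X. Peaks sharing at least 1 bp were merged. Members were chosen by the presence of a called peak in CDM-CDO and its absence from the other 3 lists, and each member is a single CDM-CDO peak. The members make up 20.1% of the 22032 merged regions with a CDM-CDO peak (95% Wilson interval 19.5 to 20.6%). All intervals given here are of that kind and cover counting error only.

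The series holds 12 samples, of which 8 were profiled by ATAC-seq, 2 per group, and 4 by CUT&Tag for the histone mark H3K27ac. These 4 were not analysed here. WDM-WDO stands for WD in both mothers and offspring, WDM-CDO for WD in mothers alone, CDM-WDO for WD in offspring alone and CDM-CDO for WD in neither, M being read as mothers, O as offspring and CD as the control diet. Offspring of the 2 WDO groups were on WD for 4 weeks, described for both groups as WD once more. What earlier WD this would mean in CDM-WDO, with mothers on the control diet, is not clear. The names of the peaks carry "12w" in both WDO lists and "08w" in both CDO lists. What the number counts is not stated, so the offspring's diet and that difference cannot be told apart. Strain, genotype, sex and age are not given in the sources used here, nor is how the endothelial cells were purified. Each group has 1 peak list, and no list separates its 2 samples. There is therefore no replicate error and no test between diets, and every comparison below is between lists. A missing peak means that no peak was called there, not that the chromatin was closed, and fewer cells of a type cannot be told apart from less open chromatin per cell.

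ATAC-seq inserts sequencing adapters with a transposase wherever DNA is not wrapped or covered, so that reads pile up over promoters, enhancers and other regulatory elements. Promoters of widely used genes are open in almost every cell type, whereas distal elements within introns and between genes differ more between cell types and states. Aortic endothelium lines the vessel wall, senses blood flow and blood lipids, and carries programmes for barrier function, inflammation and leukocyte recruitment.

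Most members lay away from promoters. The promoter sequences of 4 genes are shown because a member peak covers the start of each and no other list has a peak at either end of the gene. Usp12, a deubiquitinating enzyme, has the strongest member peak at any start site. Gucy1a2, a subunit of the nitric oxide receptor guanylate cyclase, Pear1, a platelet and endothelial receptor, and Gzma, the cytotoxic lymphocyte protease granzyme A, were chosen after their values were seen. Each sequence is the RefSeq window on GRCm38.p6 (250 bases before the start site and 50 after), written 5′ to 3′ on the gene's strand, at chr5:146794907-146795206 (minus strand), chr9:3532099-3532398 (plus), chr3:87768904-87769203 (minus) and chr13:113100932-113101231 (minus). Capitals mark matches, on either strand, to the GC box (GGGCGG), the CCAAT box, a first E-box (CAGCTG), a second E-box (CACGTG), the EBF pattern (CCCNNGGG), the RUNX pattern (TGTGGT) and the IRF or ISRE pattern.
Usp12: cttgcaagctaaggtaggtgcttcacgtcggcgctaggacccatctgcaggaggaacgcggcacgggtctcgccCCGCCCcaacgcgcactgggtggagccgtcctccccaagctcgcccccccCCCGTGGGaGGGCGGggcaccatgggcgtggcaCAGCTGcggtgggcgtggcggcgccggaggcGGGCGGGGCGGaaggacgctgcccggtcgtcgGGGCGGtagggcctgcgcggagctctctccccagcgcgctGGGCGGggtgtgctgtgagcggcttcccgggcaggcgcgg
Gucy1a2: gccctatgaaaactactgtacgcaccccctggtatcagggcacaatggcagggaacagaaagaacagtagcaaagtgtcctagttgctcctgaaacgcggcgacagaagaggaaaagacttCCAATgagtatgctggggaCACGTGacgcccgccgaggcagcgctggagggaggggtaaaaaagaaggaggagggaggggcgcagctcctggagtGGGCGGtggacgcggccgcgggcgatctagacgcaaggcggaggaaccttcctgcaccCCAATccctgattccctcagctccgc
Pear1: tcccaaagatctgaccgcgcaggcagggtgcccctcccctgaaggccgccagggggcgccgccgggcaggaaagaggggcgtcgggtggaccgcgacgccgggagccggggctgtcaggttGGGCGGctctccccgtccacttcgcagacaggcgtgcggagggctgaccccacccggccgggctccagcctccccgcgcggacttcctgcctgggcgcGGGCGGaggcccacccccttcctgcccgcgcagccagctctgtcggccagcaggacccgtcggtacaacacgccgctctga
Gzma: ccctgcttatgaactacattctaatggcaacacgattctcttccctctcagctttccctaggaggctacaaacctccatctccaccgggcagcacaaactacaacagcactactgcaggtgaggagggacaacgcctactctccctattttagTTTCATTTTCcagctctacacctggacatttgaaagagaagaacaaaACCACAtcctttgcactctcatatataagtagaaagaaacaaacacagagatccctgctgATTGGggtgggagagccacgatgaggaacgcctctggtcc

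The Usp12 window holds 6 GC boxes and no CCAAT. With the start base counted as 0, the GC boxes begin at -176, -117, -62, -57, -30 and 10, and those at -62 and -57 overlap. Its member peak had its summit 108 bp upstream of the start. The Gucy1a2 window has 1 GC box, 2 CCAAT boxes and a CACGTG E-box at -110, with the summit 22 bp downstream of the start. Pear1 has 2 GC boxes, at -129 and -31, and a summit 80 bp upstream. Gzma has no GC box. Its window carries the RUNX pattern at -50 and the IRF or ISRE pattern at -97, with the summit 123 bp upstream. Among all 32585 promoter windows of the table, 35.9% hold a GC box, 16.6% the RUNX pattern and 3.45% the IRF or ISRE pattern. A match describes the letters and not a bound factor.

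Members were weak peaks of their own list. Strength in CDM-CDO is the readout the rule rests on and is given as a description. The pileup, the number of reads over a peak's summit, recovered from the authors' values, had a median of 18 in members (5th to 95th percentile 15 to 31) and of 43 in the other 17758 CDM-CDO peaks. The authors' −log10 q, which grows with the certainty of a peak, had a median of 2.82 in members and 12.04 in the others, and the fold enrichment over local background 2.91 and 4.15. Members were also narrower, with a median width of 373 bp against 697 bp. Of the members, 3405 (77.0%) lay in the weakest 25% of the list and 76 in its stronger 50%.

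The share of peaks found in no other list was highest among weak peaks. It was 72.7% in the weakest 10% of the CDM-CDO peaks (1613 of 2218) and 58.1% in the next 10%. It was 7.57% in the 10% just below the middle of the list and 0.0902%, or 2 peaks, in the strongest 10%. These 2 were a peak over the immunoglobulin kappa segment Igkv6-32 and one at H2-Ab1. In the other sets found in 1 list only, the median pileup in that list was 24 in WDM-WDO, 20 in WDM-CDO and 19 in CDM-WDO.

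**Figure D1:**
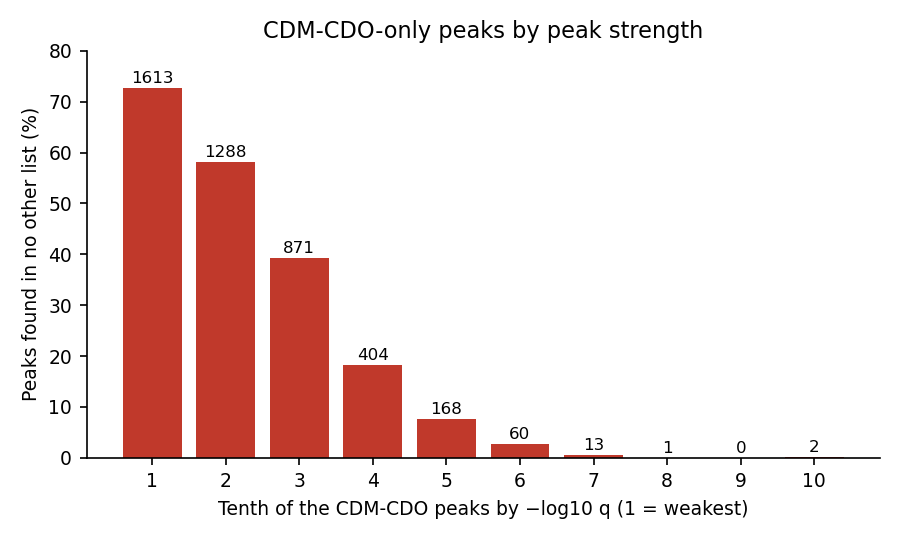
Share of CDM-CDO peaks that were found in no other list (y axis, percent) in each of 10 equal bins of the list ordered by −log10 q (x axis, 1 is the weakest), with the number of member peaks above each bar. The share is 72.7% in the weakest bin and no more than 0.586% in each of the strongest 4 bins.

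The lists differed in length and depth. On the chromosomes used there were 26275 peaks in WDM-WDO, 28319 in WDM-CDO and 18962 in CDM-WDO, against 22178 in CDM-CDO. The genome-wide background recovered from the lists was 6.08 reads in WDM-WDO, 5.59 in WDM-CDO and 5.49 in CDM-WDO, against 4.84 in CDM-CDO, and the lowest pileup called was 14 to 16. Scaled by the pileups of 5093 strong regions shared by all lists, 4364 members would be expected to reach the calling pileup in WDM-WDO, 4420 in WDM-CDO and 1171 in CDM-WDO. The scale factors over CDM-CDO were 1.1305 for WDM-WDO, 1.45 for WDM-CDO and 0.763 for CDM-WDO. Members were selected for a value in CDM-CDO, so these expected values run high, and with 2 times the calling pileup they were 15 members in WDM-WDO, 193 in WDM-CDO and 2 in CDM-WDO. Those 2 were again the Igkv6-32 and H2-Ab1 peaks.

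The endothelial label was set against gene-end peaks. Of 20 endothelial marker genes 6 had one in WDM-WDO (30%), 9 in WDM-CDO (45%) and 7 in CDM-WDO (35%), against 7 in CDM-CDO (35%). Of all protein-coding genes the shares were 47.6% in WDM-WDO, 51.2% in WDM-CDO and 40.2% in CDM-WDO, against 48.1% in CDM-CDO, so the endothelial list lay below all genes in every list. Kdr, Eng, Tie1 and Tal1 had an end peak in all 4 lists, whereas the defining markers Cdh5, Pecam1, Tek and Vwf had none in any list. Of 21 B cell genes 11 had an end peak in WDM-WDO, 14 in WDM-CDO and 7 in CDM-WDO, against 12 in CDM-CDO (57.1%). Of 26 T and NK cell genes 13 had one in WDM-WDO, 18 in WDM-CDO and 2 in CDM-WDO, against 16 in CDM-CDO (61.5%). In CDM-CDO the lymphocyte lists thus stood above all genes and the endothelial list below. The same order held in WDM-WDO (B cell 52.4%, T and NK cell 50%) and in WDM-CDO (66.7% and 69.2%). In CDM-WDO the B cell (33.3%) and T and NK cell (7.69%) lists lay below all genes as well. The lists hold only 20 to 26 genes and no intervals were computed for these shares. Whether the differences exceed counting error was not tested, and no verdict on the label is drawn from them.

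By place, the members were a distal set. Of the 4420, 420 (9.50%, interval 8.67 to 10.4%) lay within 1 kb of an end of a protein-coding gene, 1716 (38.8%) inside a gene but away from its ends, 1215 (27.5%) between genes within 100 kb, and 1069 (24.2%) farther than 100 kb from any gene. The median pileup was 23 at gene ends, 19 inside genes, 18 between genes and 17 beyond 100 kb. Position was not used by the rule. The share at a gene end was 8.09% in regions found only in WDM-WDO, 9.22% in WDM-CDO only, 3.91% in CDM-WDO only, 67.4% in regions of all 4 lists and 24.7% over all merged regions. The members' interval overlapped that of WDM-CDO only, reached that of WDM-WDO only at its edge (upper bound 8.68%) and lay above that of CDM-WDO only (upper bound 4.47%). Inside a gene span lay 46.8% of members (45.3 to 48.3%), compared with 52.0% of WDM-WDO-only, 48.9% of WDM-CDO-only, 34.8% of CDM-WDO-only and 84.6% of 4-list regions.

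**Figure D2:**
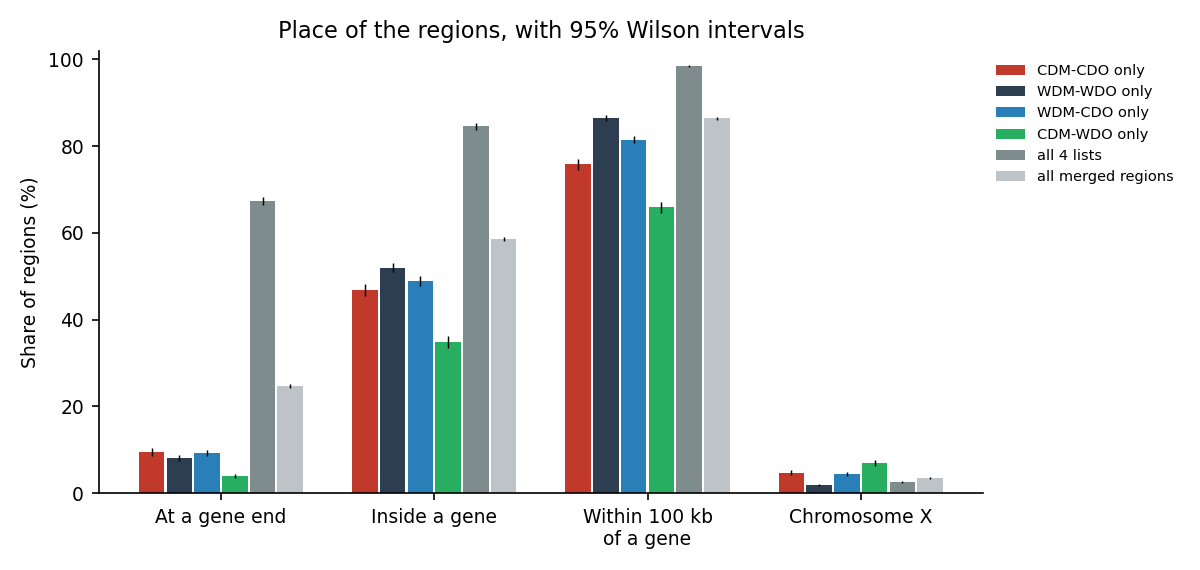
Share of regions (y axis, percent) at a gene end, inside a gene, within 100 kb of a gene and on chromosome X, for the members and 5 other sets, with 95% Wilson intervals as bars. At gene ends the members stand at 9.50%, against 67.4% of the regions of all 4 lists.

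Members also lay far from annotated start sites. The median over members was 34919 bp, compared with 21388 bp in WDM-WDO only, 29077.5 bp in WDM-CDO only, 58854 bp in CDM-WDO only and 195.5 bp in regions of all 4 lists. Within 1 kb of a start lay 7.55% of members, and 26.8% were more than 100 kb away. Chromosome 18 has no entries in the start-site table used and was left out of these shares.

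**Figure D3:**
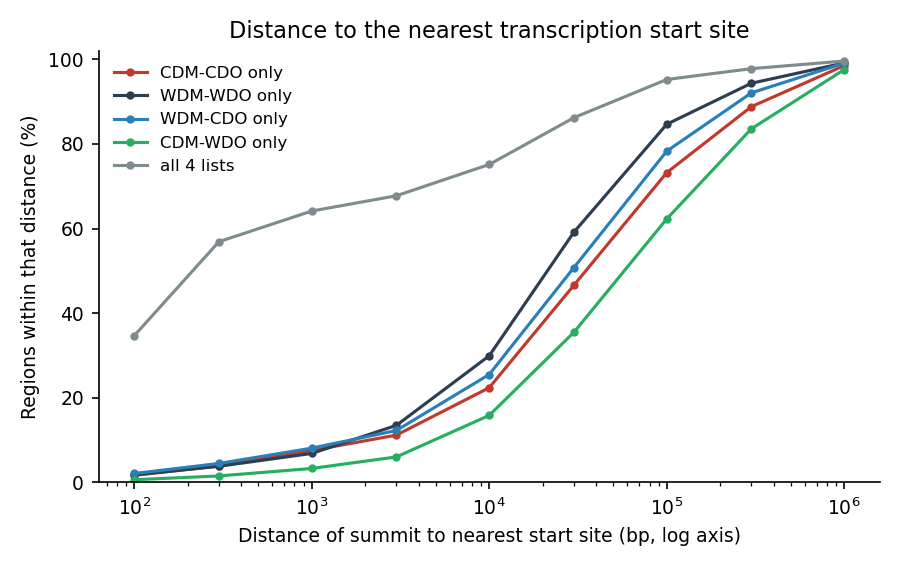
Cumulative share of regions (y axis, percent) whose summit lies within a given distance of the nearest start site (x axis, bp, log scale), for the 4 sets found in 1 list and for regions of all 4 lists. The curve of the members runs between those of the WDM-CDO-only and CDM-WDO-only sets at 100 kb, with 26.8% of members beyond 100 kb.

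Chromosomes contributed unequally. On chromosome X, 209 of 676 CDM-CDO peaks were members (30.9%, 27.5 to 34.5%), followed by chromosomes 14 (26.0%), 6 (24.4%) and 3 (24.3%). The lowest share was that of chromosome 11, with 191 of 1680 peaks (11.4%, 9.94 to 12.98%). Chromosome X held 4.73% of the members, 1.90% of WDM-WDO-only regions, 4.43% of WDM-CDO-only and 7.02% of CDM-WDO-only regions. Over whole lists it held 2.22% of WDM-WDO, 3.09% of WDM-CDO and 3.97% of CDM-WDO, against 3.05% of CDM-CDO peaks. The sex of the mice is not given, and its part in this was not tested.

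Members rarely bordered on a peak of another list. The nearest such peak was a median of 19182.5 bp away, 203 members had one within 500 bp, and 489 (11.1%) had none within 100 kb. The 5 members nearest to the rule's limit lay by Epg5 (1 bp from another list's peak), Akap12 and Emid1 (4 bp each), Slc39a4 and Ntrk3 (7 bp each), with pileups of 19 to 24. Just outside it, CDM-CDO peaks near Tgfbr3, Spred2, Uaca, Rab7 and Bod1l were shared by overlaps of 1 to 8 bp and had pileups of 18 to 24. Of the 17758 other CDM-CDO peaks, 132 were shared by 100 bp or less.

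An antigen receptor segment and an antigen presentation gene carried the 2 strongest members. The member of highest −log10 q (73.8) covered the variable segment Igkv6-32 at chr6:70074034-70074324 (GRCm38), with 110 reads at its summit over a local background of 9.06. The nearest peaks of the other lists were 388837 bp away in WDM-WDO, 635549 bp in WDM-CDO and 28557 bp in CDM-WDO, with pileups of 21, 19 and 24. Variable segments have near-identical copies, so reads there may be placed on the wrong copy. The nearest CDM-CDO peak shared with another list was 652121 bp away.

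The second was at H2-Ab1, which encodes the beta chain of the class II molecule I-A, used by antigen-presenting cells to show peptides to helper T cells. Its peak at chr17:34268634-34269371 had 169 reads over a local background of 30.7, a fold of 5.36 and a −log10 q of 63.3. It sits at the gene's higher-coordinate end. The nearest start site used here was not there but that of H2-Aa, 18583 bp from the member's summit. Within 1 kb of that end WDM-WDO had a peak of 62 reads and CDM-WDO one of 39, both beyond the member, 554 and 782 bp away, and WDM-CDO had none. At the lower-coordinate end the picture was the reverse, with peaks of 105 reads in WDM-WDO, 105 in WDM-CDO and 63 in CDM-WDO, and no peak in CDM-CDO. Every list thus had a peak at H2-Ab1, and CDM-CDO was the list without one at the lower-coordinate end.

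The beta chain gene of the related molecule I-E, H2-Eb1, held 2 members toward its higher-coordinate end. The start site of H2-Eb1 lies toward the lower-coordinate end, 8495 bp from the summit of the member inside the gene. The one inside the gene had 66 reads (−log10 q 16.7) and lay 129 bp from a WDM-WDO peak of 59 reads, and the one at the end had 51 reads (−log10 q 10.4). At the lower-coordinate end all lists had a peak, of 134 reads in WDM-WDO, 70 in WDM-CDO and 82 in CDM-WDO, against 53 in CDM-CDO. Of the 11 class II genes listed, these 2 carried members (18.2%, 5.14 to 47.7%), an interval that includes the 12.6% of all protein-coding genes with an assigned member. Over regions, 3 of 34 assigned to class II genes were members (8.82%), beside 8.08% for all genes. Among 14 class I pathway genes, Tapbp, the peptide-loading chaperone tapasin, was the one with a member, at its end (37 reads, −log10 q 3.66).

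Over the 6 antigen receptor loci, 28 of 65 CDM-CDO peaks were members (43.1%, 31.8 to 55.2%), against 19.9% of all CDM-CDO peaks. High shares of single-list peaks were seen in each other list as well, with 20 of 43 in WDM-WDO (46.5%, against 32.4% of all its peaks), 36 of 76 in WDM-CDO (47.4%, against 28.9%) and 20 of 26 in CDM-WDO (76.9%, against 27.7%). By locus, members were 7 of 11 peaks at the kappa chain, 10 of 18 at the heavy chain, 8 of 18 at the T cell receptor alpha and delta chains and 3 of 14 at the beta chain. The lambda chain and the T cell receptor gamma chain had 0 of 3 and 0 of 1. Variable segments were overlapped by 13 members, among them Ighv1-70 (22 reads, −log10 q 6.01), Ighv9-4 (23 reads, 5.06), Trav14-1 (25 reads, 8.07) and Trav13-1 (23 reads, 4.56). Apart from Igkv6-32, receptor members were small, with 15 to 25 reads.

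Genes of lymphocytes, the cells that rearrange these loci, also had members nearby. A gene was counted when at least 1 member lay nearest to it and within 100 kb, which held for 2734 of 21631 protein-coding genes, a background of 12.6%. T and NK cell genes reached 8 of 26 (30.8%, 16.5 to 49.99%) and B cell genes 6 of 21 (28.6%, 13.8 to 49.96%). Of the T and NK cell genes 7 had a WDM-WDO-only region, 12 a WDM-CDO-only region and 2 a CDM-WDO-only region, and of the B cell genes 8 had a WDM-WDO-only, 3 a WDM-CDO-only and 3 a CDM-WDO-only region. The shares of all genes were 23.004% for WDM-WDO only, 21.9% for WDM-CDO only and 12.2% for CDM-WDO only. Read over regions and not genes, 9 of 113 regions assigned to T and NK cell genes were members (7.96%). Of those assigned to B cell genes it was 7 of 57 (12.3%, 6.08 to 23.2%), beside 8.08% of regions of all genes. The T and NK share of regions was thus near the background, and the interval of the B cell share included the background.

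Among the T and NK cell genes were Cd247, the zeta chain of the T cell receptor complex (53 reads, −log10 q 5.96), the costimulatory receptor gene Cd28 (24 reads, 5.95) and Themis, a thymocyte signalling factor (20 reads, 4.56). The Cd247 member lay inside the gene, at the start of the noncoding RNA gene Gm32999. The Cd28 member lay 41290 bp from its gene, and that of Il7r (18 reads) 16495 bp. Tcf7, a transcription factor of naive T cells, had 4 CDM-CDO peaks over its span, 2 of them members with 40 and 36 reads. WDM-WDO had 1 peak there, WDM-CDO 2 and CDM-WDO none. The highest pileup over Tcf7 was 69 in WDM-WDO, 172 in WDM-CDO and 117 in CDM-CDO, so that its members were secondary peaks of a gene open in 3 lists. Ccr7, the lymph node homing receptor, and Bcl11b, a T lineage factor, followed the same pattern, each with peaks in 3 lists and none in CDM-WDO. The B cell set included the signalling adaptor Blnk (23 reads, −log10 q 4.53), the lineage factor Pax5 (22 reads in each of 2 members, 4.14 and 1.94), Fcrla (25 reads, 3.95) and the lineage factor Ebf1 (25 reads, 3.78). Fcer2a had one of 18 reads at its end, and Cr2 one of 15 reads 87445 bp away. Over Pax5, WDM-WDO had 1 peak of 38 reads, and WDM-CDO and CDM-WDO had none.

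Of the marker lists of other cell types, macrophage and monocyte genes had 1 of 16 with a member, the complement gene C1qa (27 reads, −log10 q 2.92), and neutrophil genes 1 of 12, Mmp8 (18 reads, 3.54). Red cell genes had 0 of 10, fibroblast genes 1 of 14 (Dpt, 23 reads, 3.32) and adipocyte genes 1 of 12 (Adipoq, 19 reads, 2.23). Smooth muscle genes had 3 of 14 (21.4%, 7.57 to 47.6%). This interval and those of the marker lists just named all included the 12.6% of all genes with a member. Of the 14 smooth muscle genes, 5 had a WDM-WDO-only region, 4 a WDM-CDO-only region and 1 a CDM-WDO-only region. These were 35.7%, 28.6% and 7.14%, beside 23.004%, 21.9% and 12.2% of all genes. Acta2, smooth muscle actin, carried a member of 22 reads at its start (−log10 q 4.66), and no other list had a peak over the gene. Des, the intermediate filament desmin, had one of 21 reads (2.49) and Mylk, myosin light chain kinase, one of 19 reads (2.43). Smooth muscle genes with an end peak numbered 2 of 14 in WDM-WDO, 6 in WDM-CDO and 2 in CDM-WDO, against 5 in CDM-CDO, and macrophage genes 12 of 16 in WDM-WDO, 6 in WDM-CDO and 4 in CDM-WDO, against 6 in CDM-CDO. Of all protein-coding genes, 47.6% had an end peak in WDM-WDO, 51.2% in WDM-CDO and 40.2% in CDM-WDO, against 48.1% in CDM-CDO. The part of other cell types in the members was not tested.

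Endothelial identity genes had 3 of 20 with a member (15%, 5.24 to 36.0%), close to the 12.6% of all genes. All of their members lay between genes, with 15 to 22 reads, beside 15 to 25 reads for the members of B cell genes. Cdh5, the junction protein VE-cadherin, had one 49514 bp away with 22 reads (−log10 q 3.08). Emcn, the endothelial sialomucin endomucin, had 2, of 16 and 17 reads, and Kdr, the main VEGF receptor, had one 61483 bp away with 15 reads (1.96). Among 20 genes of Notch signalling and angiogenesis, Nrp1, a VEGF co-receptor (20 reads, 3.72), and Flt1, the decoy VEGF receptor (16 reads, 1.89), had a member. Of 16 shear stress and nitric oxide genes, Mef2c, a factor upstream of the flow-induced KLF genes, had 2 members with 24 and 21 reads (6.35 and 4.33). Of 16 adhesion and chemokine genes, Ackr3, an atypical chemokine receptor, had 1 (21 reads, 1.33).

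Of 22 NF-kB pathway genes 5 had a member (22.7%, 10.1 to 43.4%), an interval that includes the 12.6% of all genes. Over regions, 8 of 93 were members (8.60%), near the 8.08% of all genes. Nfkb1, the precursor of the p50 subunit, had 3 members. The strongest, 2674 bp from the gene, had 45 reads and a −log10 q of 8.48. Nfkb1 was widely open elsewhere, with 8 peaks over its span in WDM-WDO, 6 in WDM-CDO and 4 in CDM-WDO, against 8 in CDM-CDO. Rel and Relb, further subunits, had members of 19 and 22 reads and of 22 reads, Ikbkg, the regulatory subunit of the IkB kinase, one of 18 reads, and Nfkbiz, a nuclear IkB protein, one of 36. Of 22 AP-1 and early response genes, Myc, Fos and Dusp1 had members. Myc had 3, among them one of 45 reads at the higher-coordinate end (−log10 q 4.82), where no other list had a peak, while all 4 lists had a peak at its lower-coordinate end. Interferon response genes had 0 of 18.

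Lipid genes had few members, and so did several other lists. None of 16 cholesterol synthesis and uptake genes and none of 16 fatty acid handling genes had one, and of 14 cholesterol export and oxysterol genes Cyp7b1, an oxysterol hydroxylase, did (15 reads, −log10 q 1.96). With lists of this size a share of 0 allows up to 19.4% of 16 genes by the upper Wilson bound, which includes the background of 12.6%. Over regions, 0 of 59 assigned to fatty acid handling genes were members (upper bound 6.11%). For cholesterol export and oxysterol genes it was 1 of 68 (1.47%, 0.26 to 7.87%). Both intervals lay below the 8.08% of regions of all genes. That of cholesterol synthesis and uptake genes, 0 of 27 (upper bound 12.5%), included it. Shares below 8.08% were also found outside the lipid lists, with intervals that included 8.08%. Examples among the 24 lists were interferon response (0 of 31), macrophage and monocyte (1 of 44) and shear stress genes (2.99%). Regions of WDM-WDO only numbered 18 at cholesterol export and oxysterol genes and 13 at fatty acid handling genes. Among 16 TGF-beta and mesenchymal transition genes 3 had a member. The receptor gene Tgfbr2 had one 13328 bp away (39 reads, 9.47), and the transcription factors Snai1 (25 reads, 2.87) and Zeb1 (24 reads, 4.26) had 1 each. Oxidative stress genes had 2 of 15, Txnrd1, a thioredoxin reductase (29 reads, 4.70), and Cybb, a phagocyte oxidase subunit (21 reads, 3.98). Of 20 enzymes of histone acetylation and methylation, Hdac9, Dot1l and Crebbp had members of 25, 38 and 16 reads.

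**Figure D4:**
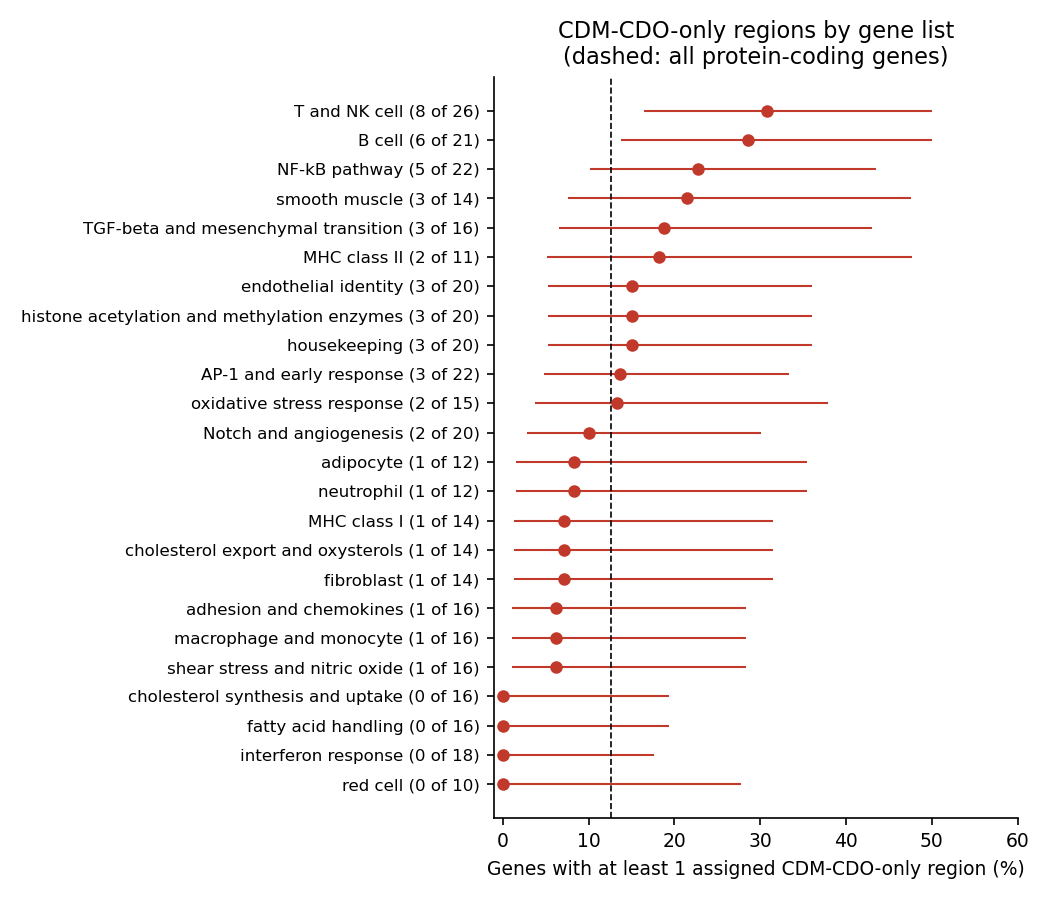
Share of the genes of each of 24 lists with at least 1 assigned member (x axis, percent; points with 95% Wilson intervals), with counts beside the list names and the share of all protein-coding genes, 12.6%, as a dashed line. The T and NK cell and B cell lists stand highest, at 30.8% and 28.6%, and the lower bounds of these 2 lists alone lie above the line.

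Some members marked gene ends. A member lay within 1 kb of an end of 450 genes, 2.08% of all protein-coding genes. For 265 of them (58.9%) no other list had a peak at either end, for 105 (23.3%) all 3 others did, and for 80 it was 1 or 2 lists. After H2-Ab1, the strongest was at Usp12, where the CDM-CDO peak had 63 reads (fold 4.88, −log10 q 21.8). The other lists had no peak at either end of Usp12, and their nearest ones were 10457 bp (29 reads) away in WDM-WDO, 12825 bp (55 reads) in WDM-CDO and 14766 bp (24 reads) in CDM-WDO. Further gene-end members were found at Cnbp, a nucleic acid-binding protein (61 reads, −log10 q 13.8), Notch2, a Notch receptor (41 reads, 13.4), Iqgap1, a cytoskeletal scaffold (43 reads, 13.1), Trf, transferrin (37 reads, 11.99), and Set, a histone chaperone (38 reads, 11.7). The remaining genes of the strongest 15 were Pnmal2, Commd9, LOC108167368, Arhgap20, Sh3bgrl3 with its neighbour Ubxn11, which share 1 peak, and Atp6v0e, with 27 to 57 reads and −log10 q of 8.73 to 10.3. Of the genes named after Usp12, only Iqgap1, Pnmal2, Commd9 and LOC108167368 had no end peak in any other list. Over the span of Notch2 the highest pileup was 79 in WDM-WDO, 98 in WDM-CDO and 41 in CDM-WDO, against 75 in CDM-CDO.

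For 272 genes the whole span with 1 kb on each side held peaks of CDM-CDO alone, 2.1999% of the 12364 genes with a CDM-CDO peak. The corresponding numbers were 570 of 12599 in WDM-WDO (4.52%), 609 of 13245 in WDM-CDO (4.60%) and 268 of 10795 in CDM-WDO (2.48%). The rule used these peaks, so the counts are a description. The strongest such gene was Celsr2, a cadherin of planar cell polarity (56 reads, −log10 q 14.97), then Pnmal2 (38 reads, 10.3) and Commd9, a COMM domain protein of endosomal sorting (33 reads, 9.95). Named after their values were seen, the synapsin gene Syn1 had 31 reads (8.52), Trpc1, a cation channel of vascular cells, 24 reads (7.24), Ctla4, an inhibitory T cell receptor, 32 reads (6.74), Gp6, the platelet collagen receptor, 23 reads (6.68), Adamts4, an aggrecan-degrading protease, 26 reads (6.44), and Gzma 24 reads (6.14). None of these had a peak of another list within 1 kb of the gene's span.

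Inside or near genes, other strong members lay at St3gal1, a sialyltransferase (56 reads, −log10 q 15.5), 1700025G04Rik (44 reads, 15.5), Sh2b1, a signalling adaptor (58 reads, 14.4), Emb, the cell-surface protein embigin (53 reads, 13.7), Slc43a2, an amino acid transporter (46 reads, 12.8), and Trmt11, a tRNA methyltransferase subunit (35 reads, 12.3). The St3gal1 member was 2587 to 2941 bp from peaks of the other lists. One strong member had Lrrc3b as its nearest gene, 307802 bp away (37 reads, 14.0). Of the strongest 15, the ones at Igkv6-32, near Lrrc3b and near Emb were the 3 outside protein-coding gene spans.

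Where several members fell to 1 gene, that gene was usually long. One member each was assigned to 2262 genes and 3 or more to 96. Frmpd4 on chromosome X had 7, with 14 to 20 reads, in a span of 1106 kb, and its regions numbered 0 in WDM-WDO, 4 in WDM-CDO and 0 in CDM-WDO, against 7 in CDM-CDO. Sox5, a transcription factor, and Tenm3, a teneurin adhesion protein, had 6 each, in 954 and 1297 kb. The next 10 genes tied at 5, among them Ccser1 and Foxp1, a fork head transcription factor. Genes with 4 or more members had a median length of 862 kb, and all genes 17.3 kb.

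Members were mostly scattered. Joined over gaps of up to 100 kb, 3022 stood alone, 474 runs had 2, 111 had 3, 19 had 4, 7 had 5 and 1 had 6. The longest lay in and around Nek10, a kinase gene, at chr14:14832039-15121232, where WDM-WDO had 1 peak, WDM-CDO 6, CDM-WDO 1 and CDM-CDO 6. The next were at Nsmce2, a SUMO ligase gene (5 members of 18 to 37 reads), and at Chil3 and Chil4, chitinase-like genes of myeloid cells (5 members of 20 to 24 reads). One of the other runs of 5, named after its values were seen, joined Mcidas, Cdc20b and Gzma at chr13:113013024-113121802, with 2 peaks in WDM-WDO, 4 in WDM-CDO and 0 in CDM-WDO, against 7 in CDM-CDO.

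Promoter windows were overlapped by 181 members, at 205 of 32585 windows (0.629%) and 132 protein-coding genes. Their sequence was of mixed type. A CpG ratio (observed over expected) of at least 0.6, a mark of CpG islands, was reached by 51.2% of them (44.4 to 58.0%). The share was 24.2% of windows overlapped by WDM-WDO-only regions, 51.1% by WDM-CDO only, 26.3% by CDM-WDO only and 82.1% by regions of all 4 lists, and 36.0% over all windows. The GC box GGGCGG was held by 54.1% of the members' windows, 28.9% of the WDM-WDO-only, 57.7% of the WDM-CDO-only and 34.7% of the CDM-WDO-only windows.

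The patterns for AP-1, IRF or ISRE, PU.1 and RUNX had no higher shares in the members' windows than in all windows. The AP-1 pattern TGANTCA was found in 4.39% (2.33 to 8.13%), as against 16.7% of WDM-WDO-only windows, 6.59% of WDM-CDO-only, 6.32% of CDM-WDO-only and 7.85% of all windows. The IRF or ISRE pattern was found in 2.93% of members' windows, 7.55% of WDM-WDO-only and 3.45% of all windows. The PU.1-type pattern GAGGAAGT was found in 2.44% of members' windows, 8.33% of WDM-WDO-only and 3.22% of all windows, and the RUNX pattern in 12.2% of members', 19.01% of WDM-WDO-only and 16.6% of all windows. The ETS core CCGGAA was in 17.1% of members' windows and 14.98% of all windows, CCAAT in 30.7% of members' and 37.6% of all windows, and TATAAA in 7.32% of members' and 13.7% of all windows. In WDM-CDO-only windows IRF or ISRE stood at 2.73%, PU.1 at 4.09% and RUNX at 15.2%, and in CDM-WDO-only windows at 2.11%, 2.11% and 18.9%. CCAAT stood at 26.0% in WDM-WDO-only, 31.1% in WDM-CDO-only and 33.7% in CDM-WDO-only windows, and TATAAA at 14.3%, 7.73% and 5.26%. Shares below that of all windows were thus also found in other sets, though not in each of them. RUNX, for example, stood above all windows in the WDM-WDO-only and CDM-WDO-only sets. In windows of regions of all 4 lists AP-1 stood at 4.15%, IRF or ISRE at 2.58%, PU.1 at 3.13% and RUNX at 11.6%. There CCAAT stood at 40.6% and TATAAA at 5.56%. Both strands were searched for 22 motifs, short patterns may overlap, and no match says only that these letters are not in the window.

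**Figure D5:**
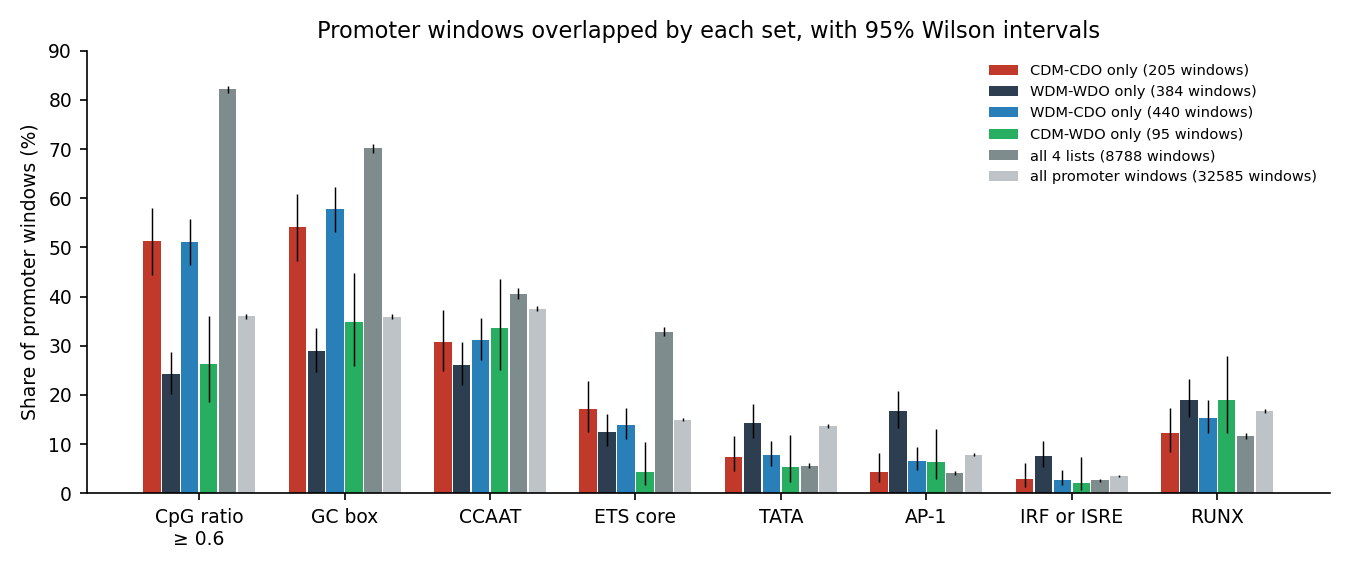
Share of promoter windows (y axis, percent) with a CpG ratio of at least 0.6 or with each of 7 motifs, for windows overlapped by the members, by 4 other sets of regions, and for all windows, with 95% Wilson intervals as bars. AP-1 stands at 4.39% for the members and 16.7% for the WDM-WDO-only set.

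Other members at start sites were those of Ids, the lysosomal iduronate sulfatase (33 reads, −log10 q 9.14), Ftx, a noncoding RNA gene of the X inactivation centre (33 reads, 7.51), Aim2, a cytosolic DNA sensor (24 reads, 7.07), Sox21 (30 reads, 7.33) and the divergent pair Lig4, a DNA ligase, and Abhd13, which share 1 peak of 42 reads (6.01). They were named after their values were seen. At Ids all 3 other lists had a peak at an end of the gene. Over Ftx the highest pileup was 74 in WDM-WDO, 92 in WDM-CDO and 40 in CDM-WDO. Over Aim2 it was 36 in WDM-WDO and 27 in WDM-CDO, and CDM-WDO had no peak. No other list had a peak at an end of Aim2, Sox21, Lig4 or Abhd13. Of the genes whose promoters are printed above, Gucy1a2 had 23 reads (6.68), with 1 WDM-WDO peak of 19 reads elsewhere in the gene. Pear1 had 38 reads (6.03), with 1 peak of 46 reads elsewhere in the gene in WDM-WDO and 1 of 46 reads in WDM-CDO. The ends of Gucy1a2 and Pear1 carried no peak in the other lists.

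A small number of members lay by microRNA genes, and the same count was not made for other sets of regions. Of 1005 hairpins in the RefSeq table, 9 lay within 1 kb of a member, and the hairpins of 2, Mir12181 on chromosome 11 and Mir346 on chromosome 14, were overlapped. The member at Mir12181 had 39 reads (−log10 q 5.81) and that at Mir346 23 (3.55). A member of 28 reads (3.604) ended 266 bp before the hairpin of Mir199b on chromosome 2. MicroRNAs pair with target RNAs through the seed, bases 2 to 8, in capitals in the sequences below, which are shown to let the seeds be compared.
mmu-miR-12181-5p: uUGAGGGUgcauaaggacugga
mmu-miR-12181-3p: uCCAGGCCucuugcucucuca
mmu-miR-346-5p: uGUCUGCCcgagugccugccucu
mmu-miR-346-3p: aGGCAGGGgcugggccugcagc
mmu-miR-199b-3p: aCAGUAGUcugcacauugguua

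The 12 mature microRNAs of the 9 hairpins had 12 different seeds, so no seed family recurred. Whether these hairpins were transcribed was not measured.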

How the data were processed

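ATAC-seq peaks of mouse aortic endothelial cells were taken from 4 deposited narrowPeak lists, 1 per diet group. Per the submitters' processing notes, the tools were MACS2 2.2.9.1, Bowtie2 2.4.5, SAMtools 1.13, Trim Galore 0.6.10, deepTools 3.5.4 and FastQC 0.12.1, on GRCm38 (mm10). Not given in the sources used here are their settings, any pooling of samples and any shift of read ends. The authors' deposited columns hold a score, a fold enrichment (a ratio to local background), −log10 p-values, −log10 q-values and the summit's offset. The lowest −log10 q was 1.30 to 1.31.

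Depth was judged from the lists, since no read totals per sample were used. The pileup at each summit was recovered as the whole number that gives both the deposited fold and −log10 p under a Poisson background (relative tolerance 0.0001), which succeeded for 99.87 to 99.98% of peaks and for every member. Genes, start sites, promoter windows and miRNAs came from RefSeq on GRCm38.p6, with 21631 protein-coding genes. A region was assigned to the nearest gene within 100 kb. Of 402 listed gene entries, 401 were matched, and Faim3 was not.

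No test between diets was possible with 1 list per group, so shares are given with 95% Wilson intervals, which cover counting error only. The scripts were tested on simulated peak lists. Genes were named by rule: the 15 strongest members, the 15 strongest at gene ends, up to 3 genes per list by −log10 q, the 5 genes with most members, the 3 largest runs and the 5 members closest to another list. Genes outside this rule are said to be chosen after their values were seen, or appear only as further members of a listed count. The members, lists and motifs were chosen with earlier results of these data known. Python 3.11.15, pandas 2.3.3, numpy 2.4.6, scipy 1.17.1 and matplotlib 3.10.9 were used. Alternatives covered a stricter q, lists of equal length, the gap to other peaks, the gene-end and assignment distances, the scaling and the lists considered.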

Additional observations from a re-analysis of the deposited data

Results flagged for a closer look

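Chromosome Y was outside the members' rule. It held 8 peaks in WDM-WDO and 5 in WDM-CDO, above the 4 in CDM-CDO, and drew attention as signal in data that no comparison here uses.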

How the results depend on the processing

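No paired analysis was possible because each group has 1 peak list and no result comes from a test, and for the same reason no sample could be left out. Of 44 values of 10 results under alternatives, 29 stayed close to those reported. A share counted as close when it lay inside the interval of the reported share, which is wide for short gene lists. The number of members became 2939 with all lists at the length of the shortest, and 7281 when presence in WDM-CDO was not considered, an alternative chosen after seeing the data, like those for the other lists. The share at a gene end was 10.98% at −log10 q of at least 2, 14.7% at equal length, 8.66% more than 500 bp from other peaks, 12.9% with a 2 kb window, 10.6% without considering WDM-WDO and 15.1% without WDM-CDO. The share inside genes was 48.6% at the stricter q, 53.5% at equal length and 53.8% without WDM-CDO. The share of endothelial identity genes was 5% at equal length and 0% with assignment within 10 kb. The number of members above the calling pileup of all other lists was 1171, but 3094 without scaling and 2 at 2 times that pileup. The B cell, T and NK cell and class II shares counted as close to those reported. The B cell share was 23.8% at the stricter q and within 10 kb (lower bound 10.6% in both) and 19.05% at equal length (7.67%). That of T and NK cells was 23.1% within 10 kb (11.03%). These lower bounds lay below the 12.6% of all genes, a share not recomputed under the alternatives. More than 500 bp from other peaks both lists' lower bounds stayed above it, as did that of T and NK cells at the stricter q and equal length. The median member had 18 reads at its summit, and a peak just under the threshold in another list is counted as missing.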
